A study of Mus musculus with 14 samples.

Results

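The 10 genes described here make the machinery of MHC class I presentation: the heavy chains H2-K1 and H2-D1, their partner B2m, the peptide transporter and loading genes Tap1, Tap2 and Tapbp, the immunoproteasome subunits Psmb8 and Psmb9, the trimming peptidase Erap1 and the transactivator Nlrc5. They were taken by symbol from a table of 43432 genes, each symbol matched 1 row, and all 10 passed the filter on low values that left 17390 genes for testing. The table holds RNA sequencing of lung cells from male 129S1 mice aged 10 to 12 weeks, which had received bleomycin (3 U/k, as the labels write the dose) or water into the trachea. Cells positive for SiglecF and CD11c, the surface profile of alveolar macrophages, were sorted by their MHC class II level. The bleomycin-treated lungs gave 4 groups of 3 libraries, MHCII-high and MHCII-low cells at 2 weeks and the same sorts at 4 weeks. The controls were 2 libraries of MHCII-low cells, numbered 1 and 3 in the labels, and there was no MHCII-high control group. Every group is thus of 1 sex and 1 inbred strain. The labels do not say whether the libraries of a group came from separate mice, so p-values measure the spread between these libraries, which may be technical.

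Class I molecules display fragments of a cell's own cytosolic proteins to CD8 T cells. The proteasome cuts proteins into peptides, and under interferon its catalytic subunits are exchanged for immunoproteasome subunits that include Psmb8 and Psmb9. The TAP transporter, a pair of Tap1 and Tap2, carries the peptides into the endoplasmic reticulum, where Erap1 trims them and tapasin (Tapbp) holds empty class I molecules beside the transporter until a peptide binds. Nlrc5 is the class I counterpart of Ciita, the transactivator of class II genes, and it acts with RFX, CREB or ATF and NF-Y factors at an assembly of short promoter elements that heavy chain, B2m, Tap1 and Psmb9 genes share. Macrophages express class I at all times, whereas their class II level depends on Ciita.

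The promoters of H2-K1, H2-D1, B2m and Tap1 are shown because they are promoters of the kind at which Nlrc5 and interferon-activated factors are known to act, and the levels of these genes are set beside that of Nlrc5 below. Each is the 250 bases before the first transcription start in the RefSeq promoter table (build GRCm38.p6), read 5′ to 3′ on the gene's strand, with every match to the motifs named after the sequences in capitals. They lie at chr17:34000348-34000597 on the minus strand for H2-K1, chr17:35262844-35263093 on the plus strand for H2-D1, chr2:122147437-122147686 on the plus strand for B2m and chr17:34187306-34187555 on the plus strand for Tap1.
H2-K1: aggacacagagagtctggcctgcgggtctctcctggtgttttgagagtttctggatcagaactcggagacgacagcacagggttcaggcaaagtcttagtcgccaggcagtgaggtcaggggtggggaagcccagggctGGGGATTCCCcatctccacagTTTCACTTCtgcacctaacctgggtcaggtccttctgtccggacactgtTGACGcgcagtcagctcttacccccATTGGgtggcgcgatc
H2-D1: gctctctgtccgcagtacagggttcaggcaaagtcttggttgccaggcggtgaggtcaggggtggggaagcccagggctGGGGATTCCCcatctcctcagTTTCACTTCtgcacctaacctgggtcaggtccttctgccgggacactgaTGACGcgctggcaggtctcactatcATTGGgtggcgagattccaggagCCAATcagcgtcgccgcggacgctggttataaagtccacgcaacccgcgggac
B2m: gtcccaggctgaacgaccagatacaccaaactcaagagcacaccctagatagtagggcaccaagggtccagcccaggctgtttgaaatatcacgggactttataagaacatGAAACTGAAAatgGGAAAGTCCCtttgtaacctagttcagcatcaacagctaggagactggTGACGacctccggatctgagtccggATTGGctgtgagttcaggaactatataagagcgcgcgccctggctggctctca
Tap1: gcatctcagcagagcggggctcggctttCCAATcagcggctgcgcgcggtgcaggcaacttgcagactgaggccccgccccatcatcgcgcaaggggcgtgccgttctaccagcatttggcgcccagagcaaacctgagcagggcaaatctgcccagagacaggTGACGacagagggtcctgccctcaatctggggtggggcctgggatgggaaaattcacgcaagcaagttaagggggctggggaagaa

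Of the 10 members, 8 have an entry in that table, and none was listed for Tap2 and Nlrc5. Motifs were searched as exact letters on both strands. An NF-kB element (GGG, any 2 bases, TT, any base, CC) was found before H2-K1, H2-D1 and B2m, in 3 of 8 windows, against 4.11% of the 32851 windows of the same length in the table. A short interferon regulatory element, GAANNGAAA, was found before H2-K1 and H2-D1 (6.31% of all windows). A longer form (GAAA, any 2 bases, GAAA), in which the short form is not contained, was found before B2m alone (2.98%). The core TGACG of CREB or ATF sites stood in 5 of 8 windows against 17.8% of all, and CCAAT, the core bound by NF-Y, in 6 of 8 against 33.8%. Psmb8 alone held TTCNNNGAA, the letters of a GAS element (7.02% of all windows), and Erap1 held none of the 6 motifs. In H2-K1, H2-D1 and B2m the NF-kB and interferon elements lay farther from the start than TGACG, and CCAAT lay closest. The NF-kB element was the outermost in H2-K1 and H2-D1 and the interferon element in B2m, whose NF-kB match was on the other strand. The H2-D1 and H2-K1 windows aligned over 177 columns with 161 identical bases (91.0%). The Tap1 window is also the promoter of Psmb9, read from the other strand, since the starts of these genes lie 226 bases apart and point away from each other. The TGACG matches of Tap1 and Psmb9 are the same bases, and so are their CCAAT matches, so each site was counted for both windows. With the H2-K1 and H2-D1 windows so alike, the 8 windows are not independent. The shares over all windows are background only, and enrichment was not tested. Such matches describe the letters of these windows only.

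**Figure D1:**
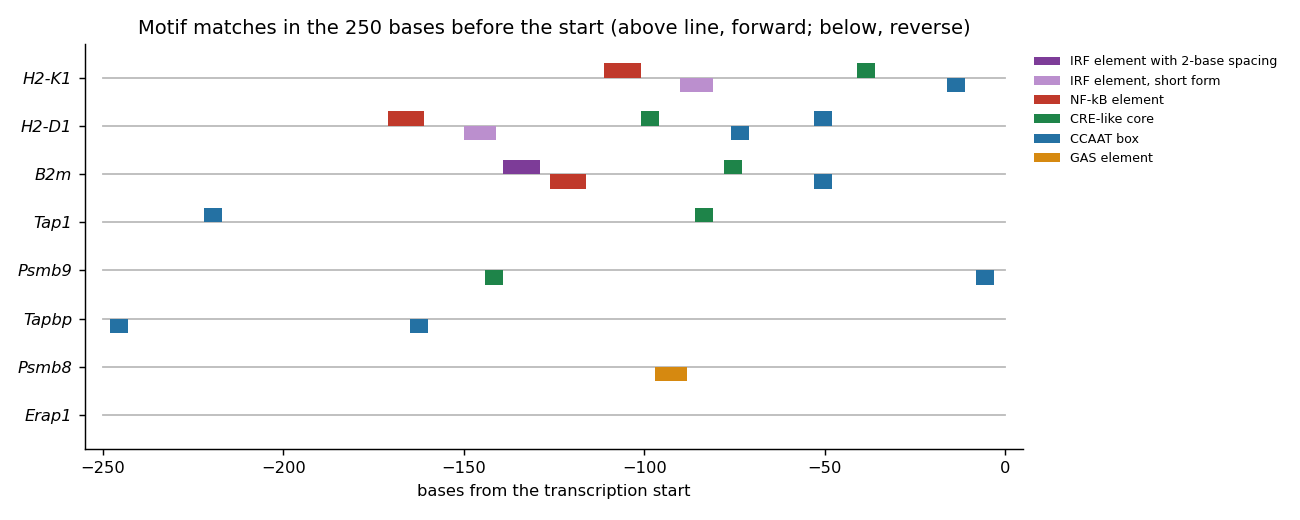
Positions of motif matches in the 250 bases before the transcription start of the 8 members in the RefSeq table, with the x axis in bases from the start, boxes above a line for the gene's strand and below it for the other strand. H2-K1, H2-D1 and B2m each carry an NF-kB and an interferon element farther out than TGACG and CCAAT, in B2m with the longer interferon form, and Erap1 carries none.

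The libraries held between 15106415 and 88059629 reads, recovered from the deposited normalized counts. The share of reads on the mitochondrial ribosomal RNAs ran from 3.12% to 29.0%, and it moved with the groups: at 2 weeks it was 22.5% to 26.2% after the MHCII-high and 3.42% to 18.3% after the MHCII-low sort, and at 4 weeks 8.12% to 29.0% and 3.12% to 23.1%. The controls had 21.7% and 24.1%. The sort was visible in the RNA. H2-Aa, a class II chain, lay between 16283 and 38503 normalized counts in the 6 MHCII-high libraries and between 381 and 1810 in the 6 MHCII-low ones after bleomycin, and it was 128 and 137 in the controls. Siglecf was lower in MHCII-high cells by 0.99 ± 0.11 (log2, SE) over both times, while Itgax, which encodes CD11c, did not pass the test (log2 difference -0.14, limma adjusted p = 0.493). Summed over 8 alveolar macrophage markers every library lay between 311819 and 542573, against at most 32702 in any library for each of 6 lists of other cells. At 2 weeks the alveolar sum was 311819 to 381873 in MHCII-high and 470225 to 542573 in MHCII-low libraries, without overlap. At 4 weeks it was 356980 to 408329 and 399036 to 502132, and the controls had 355404 and 391592. Of these 8 markers, 4 were called lower in MHCII-high cells over both times and 0 higher. The 7 monocyte-derived macrophage markers summed to between 10970 and 32702 in MHCII-high and to between 764 and 3256 in MHCII-low libraries after bleomycin, and 6 of them passed the test over both times. The 9 B and T lymphocyte markers summed to between 550.2 and 1237 in MHCII-high and to between 57.6 and 412 in MHCII-low libraries, with 5 of 8 tested called higher over both times. Of all tested genes 7.21% were called in either direction over both times.

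Per kilobase of exon, B2m was the most abundant member, with a mean over the 5 groups of 44556 normalized counts per kb. H2-D1 followed at 10046 and H2-K1 at 6880 per kb, so that by this measure B2m stood several times above either heavy chain. Tapbp stood at 1502 and Erap1 at 946 per kb, ahead of Psmb9 at 333, Psmb8 at 218 and Tap1 at 169. Nlrc5 at 56.7 and Tap2 at 52.9 per kb were the lowest. Each of the first 6 neighbours in this order was above the next in 14 of 14 libraries. Psmb8 was above Tap1 in 11 of 14, Tap1 above Nlrc5 in 13 of 14, and Nlrc5 above Tap2 in 5 of 14, so the last pair had no fixed order. By this measure the transporter partners differed, with Tap1 about 3 times Tap2 per kb. The measure divides by the deposited exon length of each gene, and whether reads scaled with that length in these amplified libraries was not tested. The fewest reads behind any member value were 72, for Nlrc5 in the 2-week MHCII-low library 1.

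Of the 10 members, 1 was called different between MHCII-high and MHCII-low cells at 2 weeks, which was Nlrc5, against 2.87% of all tested genes called by limma at an adjusted p under 0.05. None was called at 4 weeks (2.50% of all genes called), and Nlrc5 alone was called over the mean of both times (7.21%). By comparison with control MHCII-low cells, 1 member, H2-K1, was higher in MHCII-low cells 2 weeks after bleomycin (1.91%), and none was called at 4 weeks (0.0460%). No member was called between 4 and 2 weeks in MHCII-low cells (0.857%) or in MHCII-high cells (1.07%). A change of the high-to-low difference between the times was called for no member (0.00% of all genes), which does not show that the differences stayed the same. Over all genes 987 had an unadjusted p under 0.05 in that test, with 0 called by limma, 0 by edgeR and 56 by DESeq2. The members' median log2 difference between MHCII-high and MHCII-low cells was -0.16 at 2 weeks and 0.01 at 4 weeks, beside 0.08 and -0.03 over all tested genes. Against the controls it was 0.42 at 2 weeks and 0.19 at 4 weeks in MHCII-low cells, beside -0.09 and -0.06 over all tested genes. The 2-week MHCII-low libraries share in both the high-to-low comparison and the comparison with controls, so these values are not independent.

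**Figure D2:**
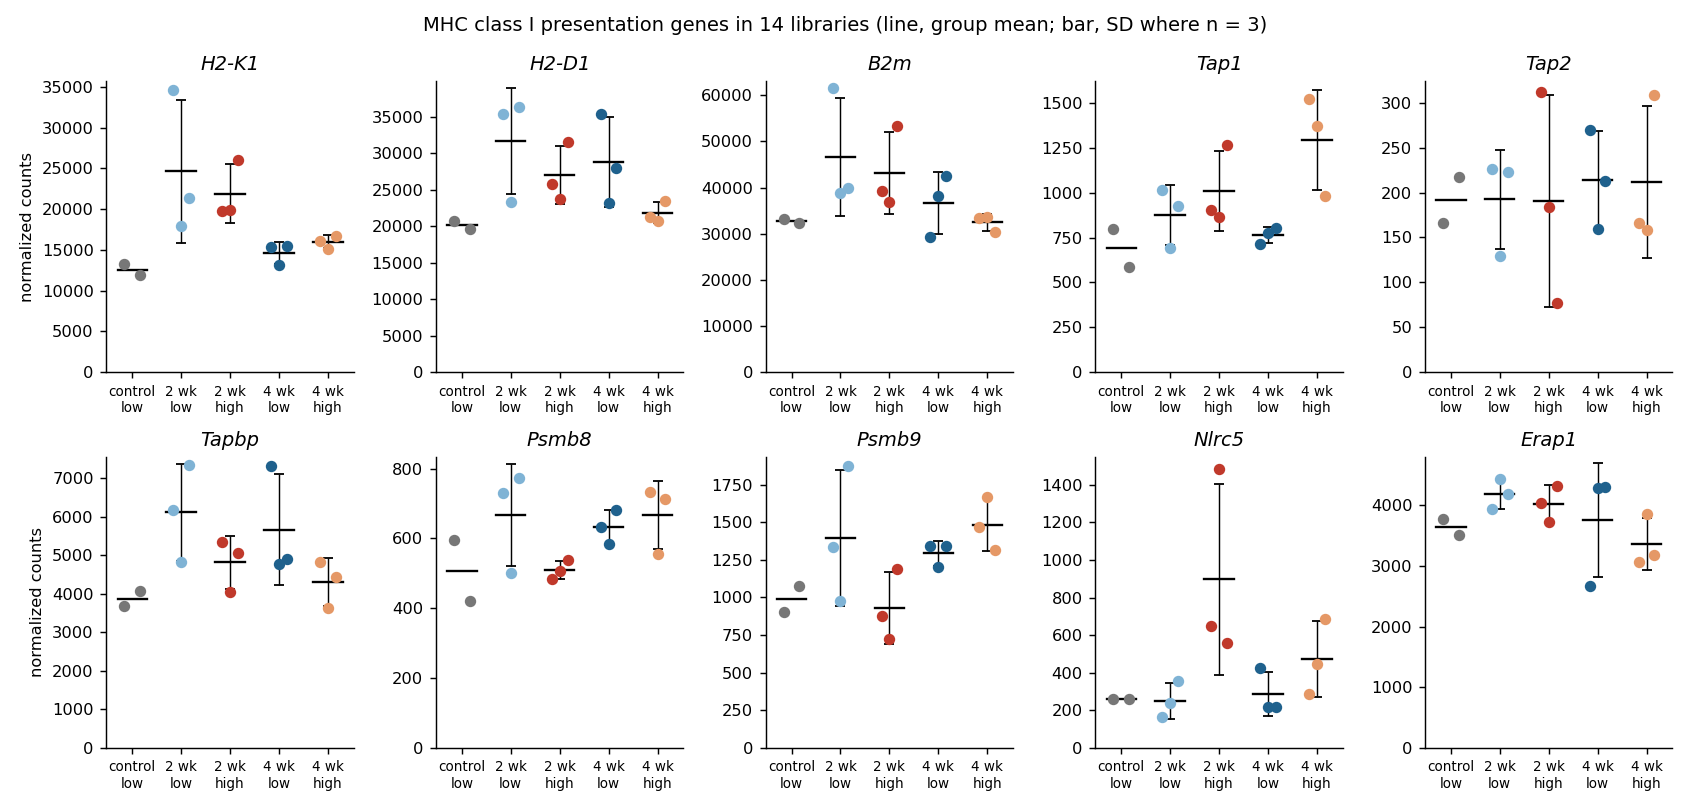
Normalized counts (y axis, from 0) of the 10 members in the 14 libraries, 1 point per library, by group (x axis), with the group mean as a line and the SD as a bar where there are 3 libraries. H2-K1 is highest in the 2-week groups, and 3 of 3 Nlrc5 points of 2-week MHCII-high cells lie above the 2-week MHCII-low points.

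H2-K1, a classical heavy chain that binds peptide (ENSMUSG00000061232, chr17:33996017-34000333), had 13231 and 11857 normalized counts in the control libraries. At 2 weeks after bleomycin its values were 34600, 17964 and 21331 in MHCII-low and 19746, 19873 and 26090 in MHCII-high cells. At 4 weeks they were 15378, 13089 and 15496 in MHCII-low and 16144, 15115 and 16678 in MHCII-high cells. Thus the lowest 2-week library of either sort lay above every control and every 4-week library, while MHCII-high and MHCII-low libraries overlapped at both times. In MHCII-low cells H2-K1 rose 1.89-fold over control at 2 weeks (log2 0.92 ± 0.21 SE, limma adjusted p = 0.024). In bulk RNA of sorted cells, a larger share of cells with a high level and more message per cell cannot be told apart. The 2-week library with the highest value, MHCII-low 1, had a mitochondrial ribosomal share of 3.42%, the lowest of its group, against 21.7% and 24.1% in the controls. With that share as a covariate the log2 difference was 0.71 (adjusted p = 0.166), and after scaling to the reads outside those RNAs it was 0.71 (adjusted p = 0.079). The call was also lost without the filter on low values (adjusted p = 0.067), without control library 1 (0.129), without control library 3 (0.307) and without MHCII-low library 1 (log2 0.64, adjusted p = 0.113).

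In MHCII-low cells every 4-week library had less H2-K1 than every 2-week library, a separation found downward in 6.76% of all tested genes, with a log2 difference of -0.70 ± 0.19 (SE) that missed the threshold (limma adjusted p = 0.117). DESeq2 on the recovered reads called it (adjusted p = 0.016), and so did limma without the 2-week MHCII-low library 2 (-0.89, adjusted p = 0.032). Without the 2-week MHCII-low library 1 the difference was -0.42 (adjusted p = 0.677). In MHCII-high cells the same step was -0.44 ± 0.19 (SE, adjusted p = 0.289), again with no overlap of libraries. Between MHCII-high and MHCII-low cells the log2 difference of H2-K1 was -0.12 at 2 weeks and 0.13 at 4 weeks, with 95% intervals from -0.52 to 0.27 and from -0.27 to 0.53.

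H2-D1, the other classical heavy chain of the table (ENSMUSG00000073411, chr17:35262730-35267499), had 20783 and 19561 normalized counts in the controls. In MHCII-low cells it reached 35405, 23306 and 36328 at 2 weeks and 35362, 23167 and 27943 at 4 weeks. In MHCII-high cells it was 25745, 23789 and 31525 at 2 weeks and 21270, 20778 and 23509 at 4 weeks. All 6 MHCII-low libraries after bleomycin were thus above both controls, and the 4-week MHCII-high libraries lay close to the controls. The log2 difference from control was 0.62 ± 0.21 (SE) at 2 weeks and 0.49 ± 0.21 at 4 weeks, and neither passed limma's test (adjusted p = 0.157 and 0.755). At 2 weeks DESeq2 called it (adjusted p = 0.046), as did limma with the trend with GC content removed (0.015) and without MHCII-low library 2 (0.035). Removing that trend moved the median of all genes by 0.30 in this comparison. About 12.8% of the 50-base stretches in H2-D1 transcripts, and 9.63% in those of H2-K1, recur in transcripts of other genes in the GENCODE annotation, most often of H2-Q1 and H2-Q10. How reads with several alignments were counted is not given in the sources used here, so both values are uncertain to that extent.

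B2m, beta-2-microglobulin, the light chain without which heavy chains do not reach the surface (ENSMUSG00000060802, chr2:122147686-122153083), had 33152 and 32247 normalized counts in the controls. Its 2-week values were 61482, 38714 and 39823 in MHCII-low and 39251, 36821 and 53264 in MHCII-high cells. Its 4-week values were 29215, 38085 and 42575 in MHCII-low and 33404, 33630.5 and 30407 in MHCII-high cells. The 6 libraries of 2 weeks were above both controls, and those of 4 weeks overlapped them. No comparison of B2m passed the test. The difference closest to it was 0.48 ± 0.21 (log2, SE) between 2-week MHCII-low cells and controls, with an unadjusted p of 0.036 and a limma adjusted p of 0.343. It was 0.26 without MHCII-low library 1 (adjusted p = 0.801) and 0.28 after scaling without mitochondrial ribosomal RNA (adjusted p = 0.561). Across the 14 libraries B2m and H2-K1 had a Pearson r of 0.82 on the log2 scale (0.74 after removing group means), which is a description of libraries that share scaling and composition.

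In all, 5 members had every 2-week MHCII-low library above both controls: H2-K1, H2-D1, B2m, Tapbp and Erap1. This was the case for 13.7% of all tested genes, and the reverse for 21.6%, with no member among the latter. At 4 weeks 3 members lay above both controls in all MHCII-low libraries (H2-D1, Tapbp and Psmb9), as 11.4% of all genes did. In the main fit all 10 point estimates were above 0 at 4 weeks, between 0.01 and 0.52 on the log2 scale, beside a median of -0.06 over all tested genes. They share the same 2 control libraries, and the share of all genes above 0 was not counted. Under other settings or with 1 library left out, H2-K1, Tap1, Tap2, Nlrc5 and Erap1 fell below 0 at least once. H2-D1, B2m, Tapbp, Psmb8 and Psmb9 stayed above 0.

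**Figure D3:**
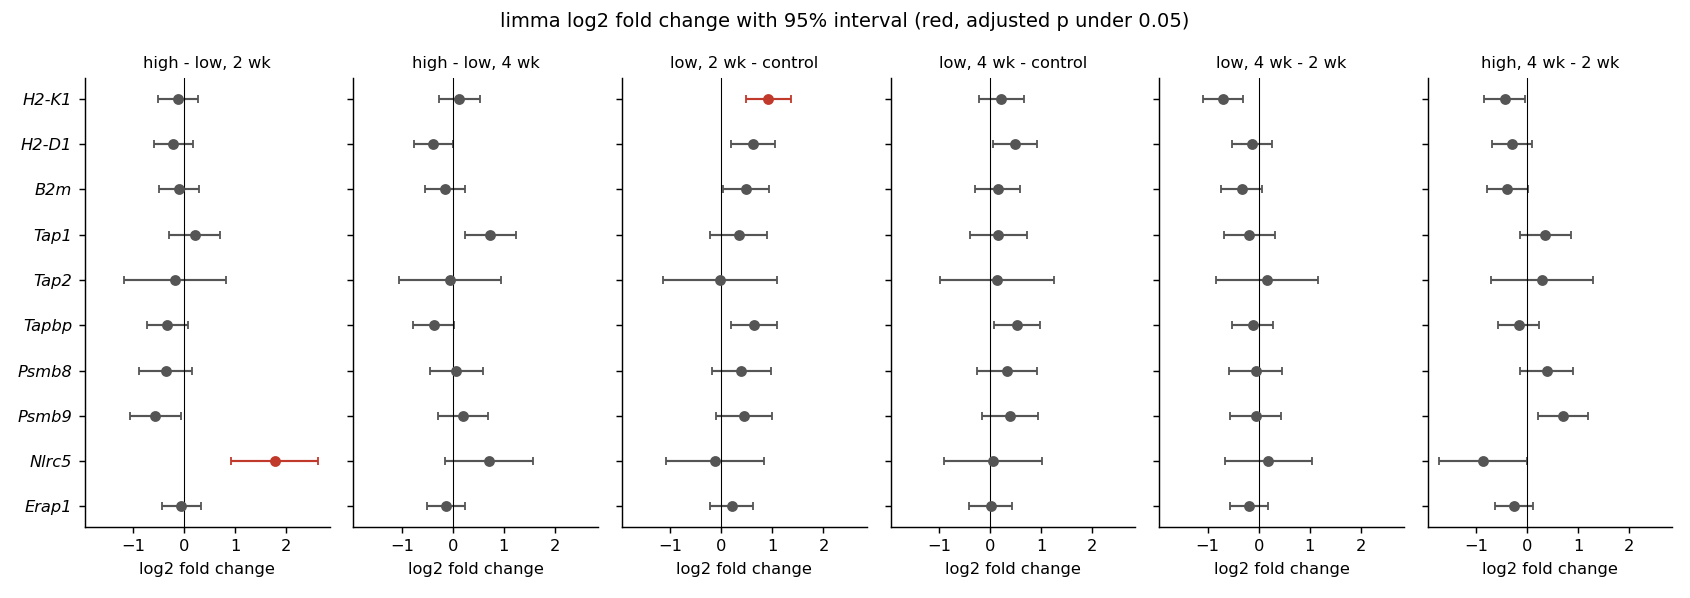
Log2 differences of the 10 members (points) with 95% intervals (bars) from limma in 6 comparisons, with the calls at an adjusted p under 0.05 in red. The calls are Nlrc5 in MHCII-high against MHCII-low cells at 2 weeks and H2-K1 in 2-week MHCII-low cells against control.

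Tap1, the transporter chain whose promoter is shared with Psmb9 (ENSMUSG00000037321, chr17:34187553-34197225), had 797 and 587 normalized counts in the controls. At 2 weeks after bleomycin it was 1014, 691 and 927 in MHCII-low and 902, 863 and 1269 in MHCII-high cells. At 4 weeks it was 716, 774 and 804 in MHCII-low and 1525.5, 1374 and 982 in MHCII-high cells. The 4-week sorts did not overlap, and this was the only member for which they did not, beside 8.26% of all genes higher in MHCII-high cells without overlap. The difference was 1.67-fold (log2 0.74 ± 0.24 SE, unadjusted p = 0.0058) and missed the threshold over all genes (limma adjusted p = 0.122). DESeq2 on the recovered reads called it at 4 weeks (adjusted p = 0.039) and over both times (0.047). Over both times limma gave 0.47 ± 0.17 (log2, SE, adjusted p = 0.101), and without the 4-week MHCII-high library 3 it gave 0.56 (adjusted p = 0.045). At 2 weeks the difference was 0.20 ± 0.24 (adjusted p = 0.766), and the change of the difference between the times, 0.53 ± 0.34, did not pass the test (adjusted p = 0.915).

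Tap2, the partner chain of the transporter (ENSMUSG00000024339, chr17:34203527-34216321), had between 76.5 and 312 normalized counts, and both extremes fell in the 2-week MHCII-high group. Its group means lay between 191 and 214, and no comparison came near the threshold. The intervals were wide: at 2 weeks the high-to-low difference was -0.19 with a 95% interval from -1.19 to 0.81. Tapbp, which encodes tapasin (ENSMUSG00000024308, chr17:33915899-33929288), had 3680 and 4059 normalized counts in the controls. In MHCII-low cells it had 6166, 4817 and 7334 at 2 weeks and 7315, 4763 and 4907 at 4 weeks, all above the controls. In MHCII-high cells it had 5352, 4034.5 and 5052 at 2 weeks and 4828, 3621 and 4444 at 4 weeks, which overlapped both. Against control the log2 difference in MHCII-low cells was 0.64 ± 0.22 (SE) at 2 weeks and 0.52 ± 0.22 at 4 weeks (limma adjusted p = 0.176 and 0.755). With the GC trend removed, which moves the median of all genes by 0.30 here, the 2-week difference was called (0.90, adjusted p = 0.0084). Between the sorts Tapbp was lower in MHCII-high cells by point estimate at both times, -0.33 ± 0.19 and -0.38 ± 0.19, with adjusted p of 0.444 and 0.372. With the GC trend removed, which itself moves the median of all genes by -0.33 at 2 weeks, the 2-week difference was -0.59 and passed the test (adjusted p = 0.038). With the mitochondrial ribosomal share as a covariate it was -0.11 (adjusted p = 0.915), without the 2-week MHCII-low library 3 it was -0.19 (0.763) and without the 2-week MHCII-high library 2 it was -0.21 (0.806). Over both times Tapbp differed by -0.36 ± 0.14 (adjusted p = 0.129), by -0.43 with the GC trend removed (adjusted p = 0.029) and by -0.16 with the covariate (adjusted p = 0.693). Zbtb22 overlaps Tapbp on the same strand over 3421 bases at a mean of 493 normalized counts, so some reads could belong to either.

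Psmb8, which replaces a constitutive catalytic subunit in the immunoproteasome (ENSMUSG00000024338, chr17:34197721-34201454), lay between 419 and 773 normalized counts in all libraries. Its mean was 508 in controls, 667.5 in 2-week and 632 in 4-week MHCII-low cells, and 509 and 667 in MHCII-high cells at the same times. Every 4-week MHCII-high library was above every 2-week one, but no comparison of Psmb8 passed the test. Psmb9 (ENSMUSG00000096727, chr17:34181988-34187764), the other such subunit, had 906 and 1076 normalized counts in the controls. MHCII-low cells had 1334, 974.5 and 1878 at 2 weeks and 1341, 1200 and 1342 at 4 weeks. In MHCII-high cells it had 874, 725 and 1189 at 2 weeks and 1469, 1669 and 1316 at 4 weeks. The MHCII-high libraries of 4 weeks were all above those of 2 weeks, a 1.62-fold difference (log2 0.70 ± 0.24 SE, unadjusted p = 0.0078) that missed the threshold (limma adjusted p = 0.16). In MHCII-low cells the same step was -0.06 ± 0.24. The high-to-low difference of Psmb9 was -0.56 ± 0.24 at 2 weeks and 0.19 ± 0.24 at 4 weeks, with adjusted p of 0.244 and 0.764, and the change between them, 0.76 ± 0.34, had an unadjusted p of 0.035 and an adjusted p of 0.815. With the GC trend removed, which moves the median of all genes by -0.33 here, the 2-week difference was -0.87 and passed the test (adjusted p = 0.034). Without the 2-week MHCII-low library 3 it was -0.32 (adjusted p = 0.614).

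In MHCII-high cells, 3 members (H2-K1, H2-D1 and B2m) had every 4-week library below every 2-week library, and Psmb8 and Psmb9 had every 4-week library above. Among all tested genes such separation was found in 9.06% downward and 5.90% upward. None of the 5 differences passed the test over all genes.

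Erap1, the aminopeptidase that trims peptides in the endoplasmic reticulum (ENSMUSG00000021583, chr13:74639872-74691875), varied least of the members. Its lowest and highest libraries differed 1.67-fold, from 2665 in the 4-week MHCII-low library 1 to 4443 in the 2-week MHCII-low library 2. The 2-week MHCII-low libraries (3940.1, 4443 and 4180) were above the controls (3777 and 3512.5) by a small margin, at a log2 difference of 0.20 ± 0.20 (SE, limma adjusted p = 0.763). No comparison of Erap1 passed the test.

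Nlrc5, the transactivator of class I genes (ENSMUSG00000074151, chr8:94434356-94527272), had 259 and 261 normalized counts in the controls. In MHCII-low cells it had 161, 237 and 353 at 2 weeks and 424, 219 and 217.5 at 4 weeks. In MHCII-high cells it had 650.4, 1483.5 and 559 at 2 weeks and 285, 447 and 686.5 at 4 weeks. At 2 weeks the lowest MHCII-high library was above the highest MHCII-low library, as for 12.9% of all tested genes, and library 2 of the MHCII-high group stood well above the others. The group means were 897.5 ± 510 (SD, n = 3) and 250.4 ± 96.6 (SD, n = 3), and the fitted difference was 3.41-fold with a 95% interval from 1.88 to 6.18 (log2 1.77 ± 0.41 SE, limma adjusted p = 0.020). At 4 weeks the sorts overlapped, and the difference of 0.70 ± 0.41 did not pass the test (adjusted p = 0.454). Over both times it was 1.24 ± 0.29 (adjusted p = 0.011). The change between the times, -1.06 ± 0.58, did not pass the test (adjusted p = 0.888), so a smaller difference at 4 weeks was not shown. Against control, MHCII-low cells differed by -0.13 ± 0.46 at 2 weeks and 0.06 ± 0.46 at 4 weeks.

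The 2-week call of Nlrc5 rests on few libraries. It was lost without MHCII-high library 2 (log2 1.34, adjusted p = 0.171), without MHCII-low library 1 (1.49, adjusted p = 0.137) and without MHCII-low library 2 (1.77, adjusted p = 0.063), as well as without the filter on low values (adjusted p = 0.062). With the mitochondrial ribosomal share as a covariate the difference was 1.68 (adjusted p = 0.131) at 2 weeks and 1.17 (adjusted p = 0.123) over both times. The call over both times held without any 1 library. The lymphocyte and monocyte-derived macrophage sums given above were also higher in MHCII-high cells, and so were dendritic cell markers, whose values follow with H2-M2. Of 6 epithelial markers, the surfactant genes Sftpc, Sftpa1 and Sftpb were called higher in MHCII-high cells at 2 weeks, Sftpc from 505 to 1763 in MHCII-low and from 2746 to 4801 in MHCII-high libraries. The epithelial sum overlapped at 2 weeks, from 9654 to 16374 in the former and from 10584.5 to 20484 in the latter. At 4 weeks it went the other way, from 24848.5 to 32159 in MHCII-low and from 11513 to 19559.5 in MHCII-high libraries. Over both times 2 epithelial markers were called higher in MHCII-high cells and 1 lower, beside 7.21% of all tested genes called. The part of any of these marker lists in the Nlrc5 difference was not tested.

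**Figure D4:**
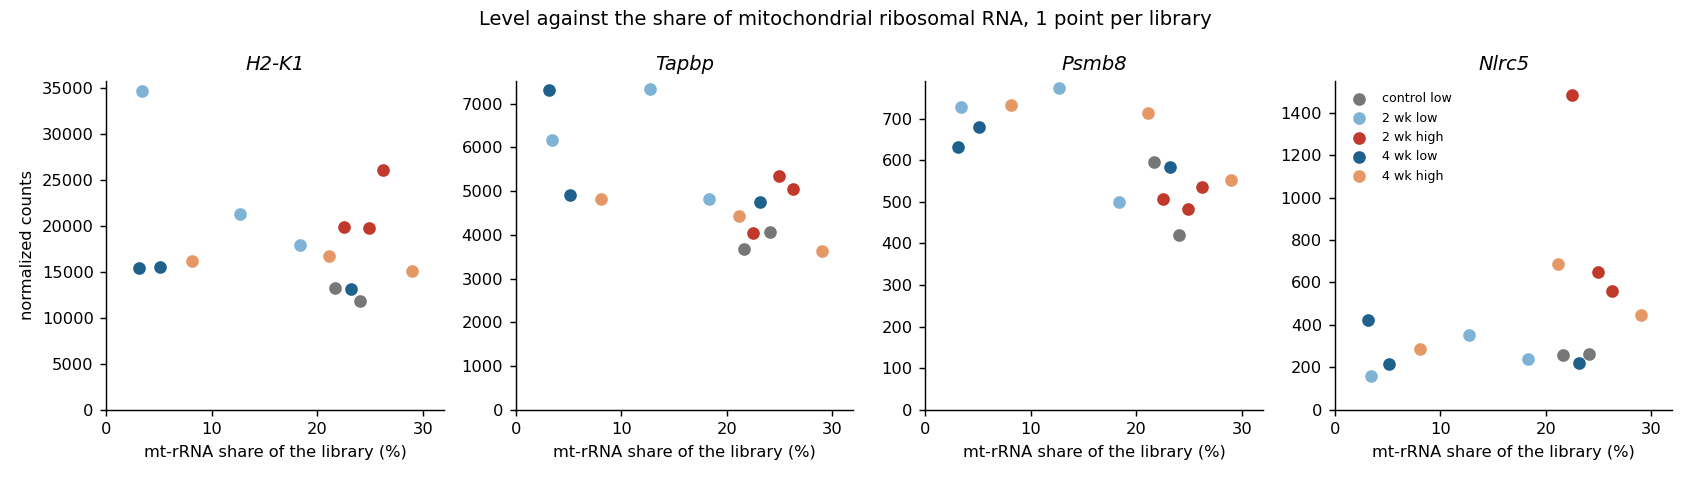
Normalized counts of H2-K1, Tapbp, Psmb8 and Nlrc5 (y axes, from 0) against the share of reads on mitochondrial ribosomal RNA (x axis, percent), 1 point per library and coloured by group. The control points sit above 20% and the lowest shares belong to MHCII-low and 4-week MHCII-high libraries; Pearson r over the 14 libraries is -0.67 for Psmb8, -0.66 for Tapbp, -0.25 for H2-K1 and 0.44 for Nlrc5.

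The mitochondrial ribosomal share tracked several members across the 14 libraries. Pearson r on the log2 scale was -0.67 for Psmb8, -0.66 for Tapbp and -0.58 for H2-D1, and 0.44 for Nlrc5 and 0.33 for Erap1. With the share as a covariate, the 2-week log2 difference between the sorts was -0.14 in place of -0.37 for Psmb8, -0.11 in place of -0.33 for Tapbp and -0.002 in place of -0.21 for H2-D1. Against control the 2-week differences were 0.20 in place of 0.39 for Psmb8, and 0.44 for both Tapbp and H2-D1 in place of 0.64 and 0.62. None of these 6 differences was called with or without the covariate. Among the members themselves, 45 pairs had a median r of 0.11, from -0.45 for Tap2 and Erap1 to 0.89 for H2-D1 and Tapbp (0.79 after removing group means). Psmb8 and Psmb9 had 0.66, which was 0.35 after removing group means, and Tap1 and Psmb9, with their shared promoter, had 0.43 and 0.57. The deposited spans of Tap1 and Psmb9 overlap by 212 bases on opposite strands. Strandedness of the reads is not stated, so some reads could belong to either. The transporter partners Tap1 and Tap2 had -0.30. The genes whose levels ran most like a member's, among 11571 of at least moderate level, were Cd14, Fcgr3 and Ctsl for H2-K1 (r from 0.90 to 0.91). They were Pld3, Vat1 and Mpv17l2 for H2-D1 (0.92 to 0.95), Adi1, Il1rn and Zfp429 for B2m (0.88 to 0.89) and 2510039O18Rik, Hvcn1 and Necap2 for Tapbp (0.92 to 0.95). Nlrc5 ran most like Rftn1, Ankle2 and Phxr4 (0.90 to 0.93). Tap1 ran most like 2900005J15Rik, Gm15787 and Mamld1 (0.83 to 0.84), Tap2 like Prickle3, Stoml1 and Nudt22 (0.78 to 0.84), and Erap1 like Vamp3, Cpne3 and Arl8b (0.86 to 0.89). Psmb8 ran most like Nt5c, Rps10 and Tor2a (0.88 to 0.91) and Psmb9 like Psmc3, BC031181 and Prr13 (0.83 to 0.85). These are the highest of many correlations over the same libraries and describe likeness only.

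Of 47 further genes of the pathway, 45 could be tested. The 4 genes of the remaining immunoproteasome and its activator (Psmb10, Psme1, Psme2 and Pomp), the 3 constitutive catalytic subunits (Psmb5, Psmb6 and Psmb7), the 4 loading chaperones (Calr, Canx, Pdia3 and Tapbpl) and the 5 cytosolic or vesicular peptidases (Lnpep, Tpp2, Npepps, Blmh and Thop1) gave no call in any of the 8 comparisons in limma's test. The alternatives were read only for called pathway genes and the 2 with the smallest p of each list and comparison, so further changes could be missed. Among those read, with the GC trend removed, Pomp (-0.89), Psmb7 (-1.12), Pdia3 (-0.72) and Blmh (-0.65) were called lower in MHCII-high cells at 2 weeks. Canx (-0.45), Pdia3 (-0.52) and Blmh (-0.50) were then called lower over both times, and Calr (0.87) was called higher in 2-week MHCII-low cells than in controls. Of all genes, that setting called 1694 at 2 weeks (22.7% higher), 1921 over both times (36.5% higher) and 856 against control (93.2% higher). It moved the median of all genes by -0.33, -0.17 and 0.30, so most calls there went these same ways. Psmb7 ranged from 1411 to 3830.5 normalized counts in 2-week MHCII-low and from 973 to 1498 in 2-week MHCII-high libraries. Of 15 regulators of class I transcription, 1 passed the test in 1 comparison, beside 7.21% of all tested genes called there. Irf9, part of the complex that type I interferon activates, rose by 0.65 ± 0.18 (log2, SE) in MHCII-high over MHCII-low cells over both times (limma adjusted p = 0.028). That call was lost with edgeR (adjusted p = 0.052), without the filter (0.050), with the GC trend removed (0.069) and without 2-week MHCII-low library 2 (0.078), 2-week MHCII-high library 3 (0.069), 4-week MHCII-low library 2 (0.081) or 4-week MHCII-high library 1 (0.063). Rela, an NF-kB subunit, differed by -0.40 ± 0.13 over both times (limma adjusted p = 0.065) and was called lower by edgeR (0.029) and DESeq2 (0.016), with TMM scaling (0.030) and with the GC trend removed (0.017). Stat2, a partner of Irf9, was called higher in 2-week MHCII-low cells than in controls by DESeq2 (0.64, adjusted p = 0.034) and with the GC trend removed (0.94, adjusted p = 0.0075). Irf1, an interferon-responsive activator of several class I genes, had a log2 difference of -0.002 over both times, and Rfx5, a subunit of the RFX complex, had 0.33 ± 0.23 (adjusted p = 0.448).

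**Figure D5:**
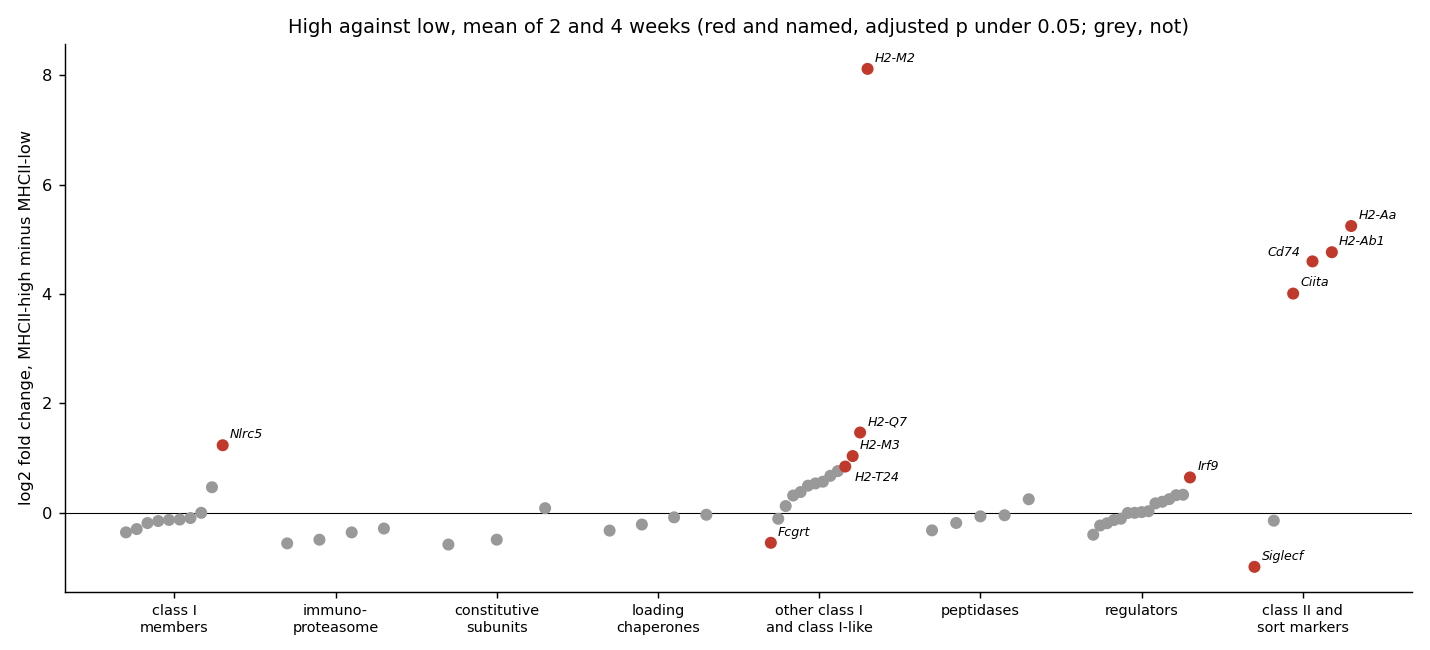
Log2 difference between MHCII-high and MHCII-low cells over both times (y axis) for the members, the tested genes of 6 further pathway lists and the sort check genes, 1 point per gene, with calls at an adjusted p under 0.05 in red and named. H2-M2 at 8.12 is the highest point, above class II genes between 4.01 and 5.24, while 9 of 10 members lie between -0.36 and 0.47.

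The list of other class I heavy chains and class I-like molecules held the strongest difference of the pathway. Of its 14 tested genes over both times, 4 were called higher in MHCII-high cells and 1 lower, beside 7.21% of all tested genes called in either direction. The list's median was 0.55 on the log2 scale beside 0.02 over all tested genes. H2-M2, a non-classical heavy chain encoded in the M region of the MHC, had 3497, 1987 and 2723 normalized counts in MHCII-high cells at 2 weeks and 1686, 2142 and 1032 at 4 weeks. In MHCII-low cells it had 35.8, 17.5 and 35.2 at 2 weeks, it was at 0, 0 and 5.3 at 4 weeks, and the controls had 2.3 and 0.9. MHCII-high libraries were therefore above every other library by a wide margin. The fitted log2 difference was 6.52 ± 0.71 (SE) at 2 weeks and 9.71 ± 0.71 at 4 weeks, where it depends on the value of 1 added before taking logs because MHCII-low counts were near 0 (limma adjusted p = 1.0e-05 and 2.2e-08). Both calls held under every alternative run and without each library of the groups compared. H2-M2 shares 1.61% of its 50-base stretches with other transcripts. The sum of 8 dendritic cell markers was also higher in MHCII-high cells, 899 to 1925 in 2-week and 1151 to 2120 in 4-week libraries. After the MHCII-low sort it was 115 to 192 and 88.4 to 192. The controls summed to 261 and 271, above every MHCII-low library after bleomycin, whereas H2-M2 was lower in controls than in 2-week MHCII-low cells. Of these markers 5 were called higher over both times (Flt3, Zbtb46, Fscn1, Ccr7 and Cd209a), Cd209a was at 0 in all 6 MHCII-low libraries after bleomycin, and Xcr1, Clec9a and Batf3 were not called. Their part in the H2-M2 difference was not tested.

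H2-M2 was also higher in 2-week MHCII-low cells than in controls (log2 3.54 ± 0.80 SE, limma adjusted p = 0.018), at levels under 40 normalized counts. H2-Aa in these libraries was 503 to 1810 against 128 and 137 in the controls, so class II message moved with it. That call was lost with the mitochondrial ribosomal share as a covariate (adjusted p = 0.112) and without control library 1 (0.07), control library 3 (0.234), MHCII-low library 1 (0.073) or MHCII-low library 3 (0.071). From 2 to 4 weeks H2-M2 fell by 3.98 on the log2 scale in MHCII-low cells (adjusted p = 0.004), a size that again depends on the added 1.

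The other class I genes called between the sorts were smaller changes. H2-Q7, a Q-region heavy chain, had 449, 331 and 208 normalized counts in 2-week and 408, 160 and 197 in 4-week MHCII-high libraries. It had 149.9, 78 and 144 in 2-week and 89.2, 76.5 and 73.6 in 4-week MHCII-low libraries, with no overlap over both times (log2 1.47 ± 0.33 SE, limma adjusted p = 0.0069). About 26.4% of its 50-base stretches recur in other genes, most in H2-Q10, so its level is uncertain. H2-T24 rose by 0.85 ± 0.22 (adjusted p = 0.018), a call lost with the mitochondrial covariate (0.167) and without 2-week MHCII-low library 1 (0.056), 2-week MHCII-high library 1 (0.051) or 4-week MHCII-low library 3 (0.053). H2-M3, which presents formylated peptides, differed by 1.04 ± 0.30 (adjusted p = 0.041), a call that was lost without the filter (0.088), with the GC trend removed (0.069) and with the mitochondrial covariate (0.078). It was also lost without any 1 of 8 libraries (adjusted p from 0.054 to 0.133): each 2-week MHCII-low library, 2-week MHCII-high library 2, 4-week MHCII-low libraries 1 and 3 and 4-week MHCII-high libraries 1 and 3. Fcgrt, the neonatal Fc receptor that recycles antibody and albumin and pairs with B2m, moved the other way. It had 3271, 3126 and 3631 normalized counts in 2-week MHCII-high and 5775, 4626 and 5978.5 in 2-week MHCII-low libraries, a log2 difference of -0.70 ± 0.16 without overlap (adjusted p = 0.019). At 4 weeks it had 5507, 5665.5 and 4787 against 8286, 6072 and 6710, and over both times it fell by 0.55 on the log2 scale (adjusted p = 0.0044). The 2-week call was lost with the mitochondrial covariate (0.196) and without MHCII-low library 1 (0.093) or 3 (0.077) or MHCII-high library 1 (0.084) or 2 (0.104), and the covariate also ended the call over both times (0.122). In MHCII-high cells Fcgrt rose by 0.67 ± 0.16 from 2 to 4 weeks (adjusted p = 0.048), and that call was lost with edgeR (0.085), without the filter (0.086), with TMM scaling (0.061), with the mitochondrial covariate (0.078) and without any library but 4-week library 3 (0.081 to 0.145). H2-T23, the mouse Qa-1 heavy chain that engages NK cell receptors, was not called between the sorts (log2 0.12 ± 0.19 over both times, adjusted p = 0.765).

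Beside these, the class II transactivator Ciita rose by 4.01 ± 0.23 (log2, SE) over both times in MHCII-high cells, from values between 73.8 and 172 to values between 1319.5 and 2208. Its class I counterpart Nlrc5 differed by 1.24 ± 0.29, and the classical class I chains H2-K1, H2-D1 and B2m by 0.002 ± 0.14, -0.30 ± 0.13 and -0.13 ± 0.14, with adjusted p of 0.996, 0.190 and 0.642. The 95% intervals of these 3 ran from -0.28 to 0.28, from -0.57 to -0.02 and from -0.41 to 0.15. Only that of H2-D1 left out 0, and it is not adjusted for the number of genes tested. Because the cells were sorted by class II level, the size of Ciita's difference is no yardstick for these 3.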

How the data were processed

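The authors deposited a table of normalized counts (a signal on no fixed scale) for 43432 genes in 14 libraries, with the GC percent and exon length of each gene as deposited. Per the submitters' processing notes, STAR, DESeq2 and the mouse build mm10 were used. Per the labels' protocols, messenger RNA was amplified with a NuGen kit and libraries were made with Nextera XT. The sources used here do not state strandedness, read length or annotation release. The deposited normalized counts were read as whole multiples of 1 step per library, which gave the read totals. The lower values, where this was checked, all came out as whole reads within rounding. Higher values, among them those of H2-K1, H2-D1, B2m, Tapbp and Erap1, were divided by the same step and rounded without that check. A gene entered the tests when 2 or more libraries reached 10 normalized counts. Testing used limma 3.58.1 (trended variance) on log2(value + 1), with 1 coefficient per group over all 14 libraries, two-sided, and Benjamini-Hochberg adjustment within each of 8 comparisons at 0.05. Log2 differences are on that scale and understate changes of low genes. The scripts were tested on simulated data. Alternatives were edgeR 4.0.16 (quasi-likelihood, TMM) and DESeq2 1.42.0 on the recovered reads, a pseudocount of 5, no filter, TMM scaling of the normalized counts, scaling without mitochondrial ribosomal RNA, removal of the GC trend, the mitochondrial share as a covariate, the replicate number as a block and leaving out each library. Between the sorts the block was week and number together, in the bleomycin libraries. Against control and between the times it was the number alone, as a factor over all 14 libraries. The members and gene lists were chosen with earlier results of these data known. All 10 members are named in the comparisons. Of each other pathway list, at most 4 called genes per comparison and 2 others are named, with the sort check genes and the 3 genes most correlated with each member at a mean log2 of at least 5. Coordinates are those of the deposited table, and the 10 spans overlap the members in GENCODE on GRCm38.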

Additional observations from a re-analysis of the deposited data

How the results depend on the processing

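The counts of members called moved as follows, and the counts over all genes, given in the next paragraph, moved too. Between MHCII-high and MHCII-low cells at 2 weeks, where 1 member was called, 0 were called without the filter, 3 with the GC trend removed, 0 with the mitochondrial covariate, and 0 to 1 with 1 library left out. Removing the GC trend called 1694 of all genes here, against 499 in the main fit. At 4 weeks, where 0 were called, DESeq2 called 1. Over both times, where 1 was called, DESeq2 called 2, removal of the GC trend 2, the mitochondrial covariate 0, and 1 to 2 with 1 library left out. In 2-week MHCII-low cells against control, where 1 was called, DESeq2 called 2, no filter 0, scaling without mitochondrial ribosomal RNA 0, removal of the GC trend 3, the mitochondrial covariate 0, the replicate block 3, and 0 to 2 were called with 1 library left out. Of all genes, removal of the GC trend called 856 here and the block 416, against 332 in the main fit. In MHCII-low cells at 4 against 2 weeks, where 0 were called, DESeq2 called 1, and 0 to 1 were called with 1 library left out. The other 3 comparisons stayed at 0 members under all settings. No called member value changed sign, while values that were not called did so 35 times over the 9 other settings and 54 times over left-out libraries.

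Over all genes, limma's 499 calls at 2 weeks (79.8% higher) became 1055 with DESeq2, 316 without the filter, 1694 with the GC trend removed (22.7% higher) and 207 with the mitochondrial covariate. The 434 calls at 4 weeks became 898 with DESeq2 and 282 without the filter. The 1254 over both times (69.4% higher) became 2122, 1921 with the GC trend removed (36.5% higher) and 500 with the covariate, and TMM scaling gave 1401 (54.7% higher). The 332 against control at 2 weeks (77.7% higher) became 660 with DESeq2, 856 with the GC trend removed (93.2% higher) and 213 with the covariate, and scaling without mitochondrial ribosomal RNA gave 296 (53.7% higher). The 8 at 4 weeks became 77 with DESeq2, 65 without the filter, 28 with the GC trend removed, 2 with edgeR, 2 with the covariate and 16 with the block. In MHCII-low cells over time 149 became 322 with DESeq2, and in MHCII-high cells 186 (29.0% higher) became 638 with DESeq2, 112 with edgeR, 103 without the filter and 409 with the GC trend removed (74.6% higher). With 1 library left out the counts were 203 to 455 at 2 weeks (lowest without MHCII-high library 2), 266 to 480 at 4 weeks (lowest without MHCII-low library 3), 853 to 1399 over both times, 127 to 308 against control at 2 weeks (lowest without control library 3) and 1 to 8 at 4 weeks (lowest without control library 3). They were 95 to 138 in MHCII-low cells over time (lowest without 4-week library 2), 64 to 299 in MHCII-high cells over time (lowest without 2-week library 3) and 0 to 2 for the change of the high-to-low difference (2 without the 4-week MHCII-high library 3). Removing the GC trend shifted the median of all genes by -0.33 at 2 weeks between the sorts and by 0.30 against control. Causes of these moves were not tested. Same-numbered MHCII-high and MHCII-low libraries deviated together weakly (r from 0.01 to 0.12, 2 of 6 pairs over 0.1), so the numbers were not taken as pairs. Against control the block joined libraries by number alone, a link that the labels do not give. With the block, H2-D1 (0.74, adjusted p = 0.026) and Tapbp (0.77, adjusted p = 0.03) were also called in 2-week MHCII-low cells against control, and H2-M3 was lost over both times (adjusted p = 0.064). No other call of a member changed, nor of the genes checked in the 6 pathway lists. Those checked were the called genes and the 2 with the smallest p of each list and comparison. Each of 4 of the 6 MHCII-high libraries correlated best with the MHCII-low library of its own number.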
